A study of Mus musculus with 5 samples.

Results

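The Nodal pathway and its Lefty antagonists are described here through 10 genes: the ligands Nodal and Gdf3, the inhibitors Lefty1 and Lefty2, the processing enzymes Pcsk6 and Furin, the co-receptor Tdgf1, the receptor Acvr2b, the transcription factor Foxh1 and the inhibitory protein Smad7. They are 10 of 18193 genes on the arrays, chosen by name, and 17 of 45037 probe sets carry 1 of these symbols as their only annotation. A probe set is a group of short probes that reports 1 transcript. For a gene with several probe sets, the brightest on average over the 5 arrays stands for it.

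RNA was measured on 5 Affymetrix arrays from E14 mouse embryonic stem cells, an established line. Of these, 2 arrays were wild type (WT) and 3 were labelled Trip12 mut/mut, that is, homozygous for a mutation of Trip12, a HECT-type ubiquitin ligase. Cells of both genotypes were grown with LIF (100 units/ml) on a feeder layer of mouse embryo fibroblasts, in medium with 14% serum replacement and 1% fetal bovine serum. The labels do not state what the mutation is, how many mutant clones were used, or whether feeder cells were taken out before extraction. The samples are named biological replicates, but nothing says that they came from separate cultures, so p-values measure only the spread between these samples.

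Nodal is a secreted ligand of the TGF-beta family. It is made as a precursor that proprotein convertases such as Furin and Pcsk6 (PACE4) cut, and it signals through activin receptors (type II, such as Acvr2b, and type I) together with the co-receptor Tdgf1 (Cripto). The receptors phosphorylate Smad2 and Smad3, which enter the nucleus with Smad4 and bind DNA with partners such as Foxh1. Nodal itself, Lefty1, Lefty2 and Smad7 are known targets of the pathway, and the Lefty proteins and Smad7 feed back to restrain it. In embryonic stem cells the pathway is active without added ligand, and it acts in the pluripotent epiblast and in forming mesoderm and endoderm.

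Values are log2 RMA values, so a difference of 1 is 2-fold. RMA, the authors' method, removes background, gives the arrays a common distribution and combines a probe set's probes into 1 value. Trip12 itself read 10.17 and 10.25 in WT. The array labelled Trip12 mut/mut replicate 1 read 10.18, and Trip12 mut/mut replicates 2 and 3 read 12.09 and 12.57. The targeted gene therefore does not set the array labelled replicate 1 apart from WT. Whether that array carries the wrong label cannot be settled from these values, so each value over all 5 arrays holds only for the labels as given. The labels do not place the mutation relative to that probe set. Over all probe sets that array correlated with the WT arrays at r = 0.9989 and 0.9988, and the WT arrays with each other at 0.9989, while replicates 2 and 3 correlated with WT at 0.9923 to 0.9944. Results are given over all 5 arrays as labelled, and again without that array. Leaving an array out on the strength of what it measured makes the p-values of the second comparison too small. Markers of the labelled cell type were present: 12 of 12 embryonic stem cell markers were measured, with WT means between 8.38 and 14.18, Pou5f1 among them between 12.25 and 12.48 on the 5 arrays. Fibroblast markers were also present, and most were higher on replicates 2 and 3. Some were not: Lum, Mmp2 and Pdgfra differed from the WT mean by -0.31, -0.37 and -0.23 on replicate 2, and lay above it on replicate 3. The 20 markers measured of 20 summed to 199.1 and 199.3 in WT and 198.5 on the array labelled replicate 1, whereas replicates 2 and 3 read 207.6 and 207.9. In the second comparison, described below, 5 of 19 fibroblast markers tested rose and 0 fell, against 3.29% and 1.34% of all genes. There, 14 of the 19 lay above both WT arrays on replicates 2 and 3 and 0 below, against 35.2% and 22.1% of all genes. Of the 12 stem cell markers 1 passed there, Utf1, which fell by 0.80 (limma adjusted p = 0.0422), while Sall4 differed by -0.50, Esrrb by 0.57 and Tbx3 by 0.68 without passing. The part of these markers in the results below was not tested. Of the primitive endoderm markers 6 of 10 passed the filter on dim genes, of the trophoblast markers 3 of 6 (of which Krt7 fell), and of the mesoderm markers 2 of 5 measured.

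The stretches of 250 bases before the start of Nodal and of Tdgf1 are shown because they are the ligand and its co-receptor, whose values are given below. They are from RefSeq, build GRCm38.p6, chr10:61417722-61417971 on the plus strand for Nodal and chr9:110946159-110946408 on the minus strand for Tdgf1, and they end at the base before the gene's start. The table of such sequences held 5 of the 10 genes, and Lefty1, Lefty2, Gdf3, Foxh1 and Smad7 were not in it. Capitals mark matches to 2 motifs, searched on both strands: CAGAC, which Smad3 and Smad4 bind, and AATNNACA, a loose form of the Foxh1 site AATCCACA.
Nodal: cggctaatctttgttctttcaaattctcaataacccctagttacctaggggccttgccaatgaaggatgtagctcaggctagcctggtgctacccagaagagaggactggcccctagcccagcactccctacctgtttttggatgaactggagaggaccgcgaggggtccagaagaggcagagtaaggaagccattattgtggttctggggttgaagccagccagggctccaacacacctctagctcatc
Tdgf1: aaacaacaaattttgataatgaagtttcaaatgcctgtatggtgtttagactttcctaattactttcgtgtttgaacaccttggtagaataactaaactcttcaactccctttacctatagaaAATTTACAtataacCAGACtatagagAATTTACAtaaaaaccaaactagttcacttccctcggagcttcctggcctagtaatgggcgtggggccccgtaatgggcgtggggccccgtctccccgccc
The Tdgf1 stretch held 2 copies of AATTTACA, 127 to 120 and 101 to 94 bases before the start, with 1 CAGAC between them, 113 to 109 bases before it. The matches do not overlap. The Nodal stretch held neither motif in these letters. Of 32851 windows of the same length, 42.2% held CAGAC, 10.9% held AATNNACA and 0.718% held AATCCACA. A match of these letters is a description of the sequence and not a measured site.

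On replicates 2 and 3 the transcripts of both Lefty inhibitors were lower than in WT. Lefty1 and Lefty2 were the members that passed the test there, at 1.92-fold and 1.62-fold lower, where 4.64% of all genes passed. Neither passed over all 5 arrays, and both calls depend on how the comparison is set up. On replicates 2 and 3 Nodal read 1.44-fold above WT, Acvr2b 1.5-fold below and Foxh1 1.39-fold below. Each lay outside the WT range on both arrays, where groups did not overlap for 57.2% of all genes, and none was past the threshold. Gdf3, Tdgf1 and Smad7 read within 0.11 of the WT mean when both arrays were averaged. On the array labelled replicate 1 all 10 genes lay within 0.07 of the WT mean, although the WT arrays themselves differed by up to 0.24.

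**Figure D1:**
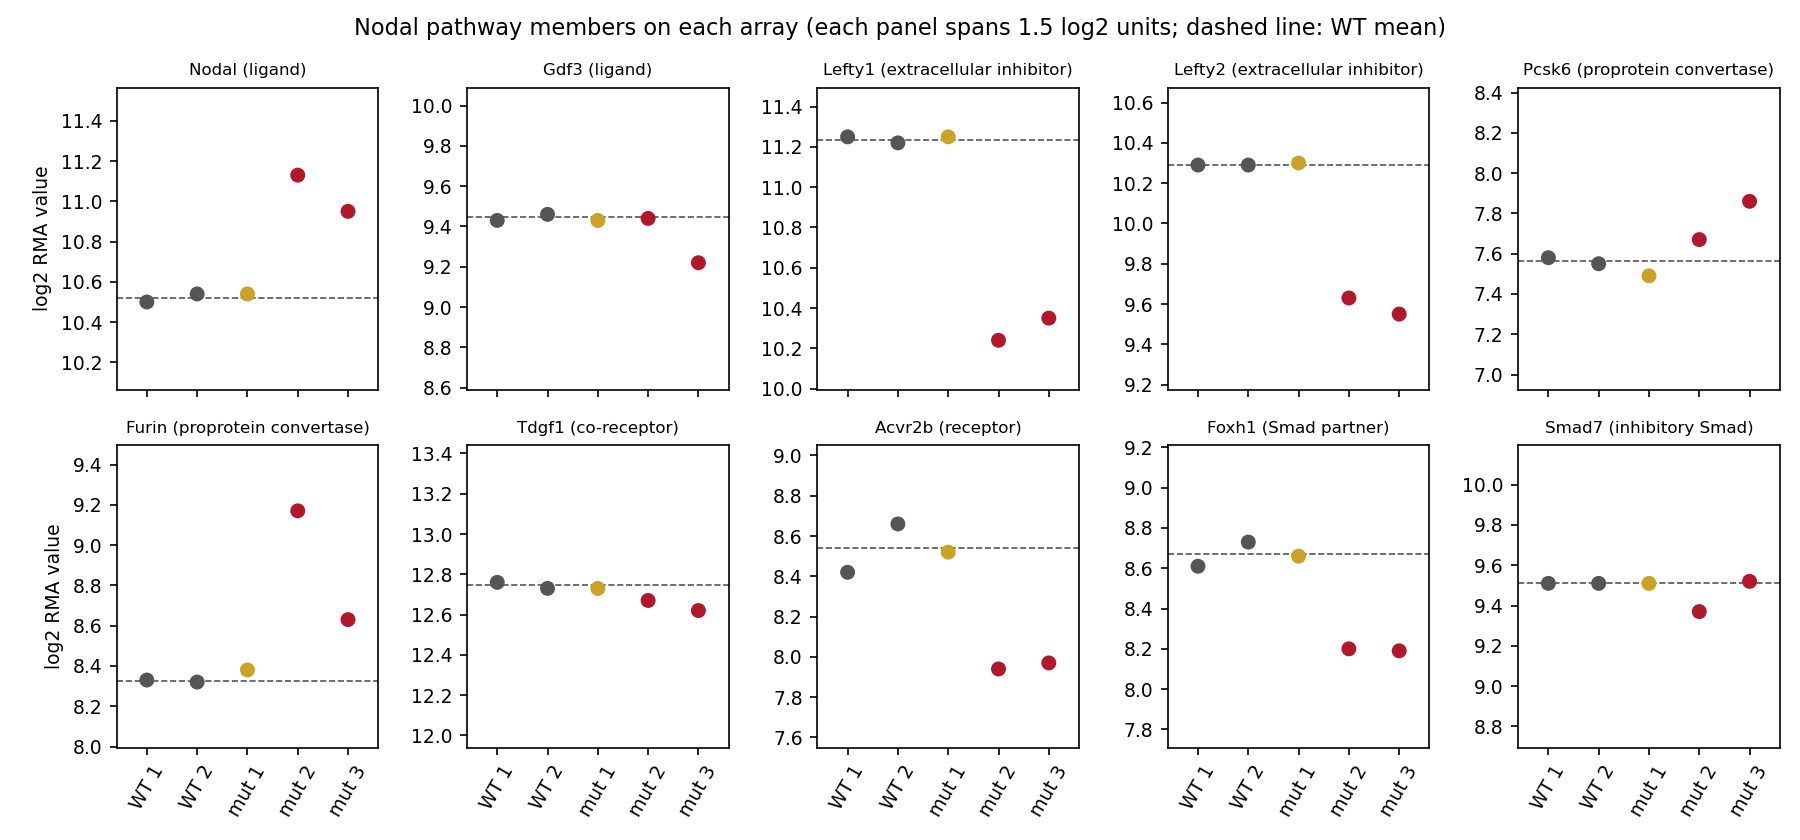
Log2 RMA value (vertical axis) of each of the 10 genes on the 5 arrays (horizontal axis); points are single arrays, grey for WT, yellow for the array labelled Trip12 mut/mut replicate 1 and red for replicates 2 and 3, the dashed line is the WT mean, and each panel spans the same height. The yellow points lie within 0.07 of the WT mean in every panel. The red points of Lefty1, Lefty2, Tdgf1, Acvr2b and Foxh1 lie below both WT points, and those of Nodal, Pcsk6 and Furin above.

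With the labels taken as given and all 5 arrays used, 0 of 10 genes passed limma's test at an adjusted p of 0.05, against 0% of all 18193 genes. At an unadjusted p of 0.05 the count was 0 of 10, against 1.18% of all genes. The groups did not overlap for 1 of 10 genes, Furin, against 12% of all genes (5.73% higher and 6.29% lower). The median difference of the 10 genes was -0.08, and that of all genes 0.02. An exact two-sided permutation test of 2 against 3 arrays cannot go below p = 0.2. The second comparison set replicates 2 and 3 against both WT arrays, for 11626 genes with at least 2 of the 4 arrays above the median of all values, 5.52. All 10 genes lay above that median on every array. In limma 2 of 10 fell and 0 rose, and 8 did not pass, against 4.64% of all genes called in either direction, 3.29% as higher and 1.34% as lower. At an unadjusted p of 0.05 the count was 6 of 10, against 28.8% of all genes. Groups did not overlap for 8 of 10 genes, 3 higher and 5 lower, against 57.2% of all genes, 35.2% higher and 22.1% lower. The median difference was -0.11, against 0.05 over all genes tested. Read from its brightest probe set, no member differed by 1 or more on the log2 scale.

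Lefty1, which binds Nodal and its co-receptor and blocks signalling, read 11.25 and 11.22 in WT and 11.25 on the array labelled replicate 1, whereas replicates 2 and 3 read 10.24 and 10.35. The last 2 arrays lay well below the other 3, which were within 0.03 of each other. The mean was 11.24 ± 0.02 (SD, n = 2) in WT and 10.30 ± 0.08 (SD, n = 2) on replicates 2 and 3. Lefty1 thus fell by 0.94 on the log2 scale (SE 0.08, 95% interval -1.15 to -0.73, limma adjusted p = 0.042), and 0.92% of the genes tested had a lower difference. In bulk RNA, fewer cells that express a gene and less of its RNA per cell cannot be told apart.

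Lefty2, its close paralogue with the same role, read 10.29 and 10.29 in WT and 10.30 on the array labelled replicate 1, whereas replicates 2 and 3 read 9.63 and 9.55. The groups were again separate without that array, and overlapped with it. Lefty2 fell by 0.70 (SE 0.07, 95% interval -0.89 to -0.50, limma adjusted p = 0.042), from 10.29 ± 0.00 to 9.59 ± 0.05 (SD, n = 2 each), and 1.88% of genes had a lower difference. As labelled, over all 5 arrays, the differences were -0.62 (SE 0.34) for Lefty1 and -0.46 (SE 0.26) for Lefty2, each with a limma adjusted p of 0.748. Each Lefty gene has 1 probe set here. Whether probes of one also bind the transcript of the other was not tested, so the Lefty values are not shown to be independent.

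The calls of both Lefty genes depend on how the comparison is set up. Their limma adjusted p was 0.0785 with dim genes kept, 0.125 with array weights, 0.0596 with 1 test per probe set, and 0.59 and 0.594 without WT replicate 1 or 2. The size lay between -0.99 and -0.89 for Lefty1 and between -0.74 and -0.66 for Lefty2 over the 12 alternatives to the second comparison. Several of these could not change it, such as the filter on dim genes, or the choice of probe set for genes with 1. Over the alternatives to the comparison of all 5 arrays it lay between -0.94 and -0.44 for Lefty1 and between -0.70 and -0.33 for Lefty2. Most fibroblast markers were higher on the same arrays. Their part in these differences was not tested.

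Lefty2 and Lefty1 are near neighbours on mouse chromosome 1 in the gene order of assembly GRCm38.p6. The nearest 3 protein-coding genes on each outer side of the pair, read for their position and not for their values, did not pass in limma where they were tested. On the Lefty2 side Sde2 differed by -0.04, H3f3a by -0.04 and Acbd3 by 0.53. On the Lefty1 side Tmem63a differed by 0.26 and Ephx1, an epoxide hydrolase gene, by 0.35, and 9130409I23Rik was dim, with a WT mean of 2.49. The limma adjusted p of the 5 tested lay between 0.0646 and 0.751.

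Nodal read 10.50 and 10.54 in WT and 10.54 on the array labelled replicate 1, whereas replicates 2 and 3 read 11.13 and 10.95. Both of these arrays lay above all others, by 0.61 and 0.43 over the WT mean, which is 1.53-fold and 1.35-fold. The difference was 0.52 (SE 0.09, 95% interval 0.27 to 0.78) and missed the threshold (limma adjusted p = 0.0594). A second, dimmer Nodal probe set ran the same way, at 7.99 and 8.11 in WT and 7.96 on the array labelled replicate 1, whereas replicates 2 and 3 read 8.48 and 8.55. With the mean of both probe sets the difference was 0.49 and passed (limma adjusted p = 0.025). Over the 12 alternatives it passed in 4, and the difference lay between 0.43 and 0.61. Over all 5 arrays it was 0.35 (SE 0.19, limma adjusted p = 0.748).

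Gdf3, a TGF-beta family ligand of pluripotent cells that also uses Tdgf1, read 9.43 and 9.46 in WT and 9.43 on the array labelled replicate 1, whereas replicates 2 and 3 read 9.44 and 9.22. Only replicate 3 lay below the WT arrays. The difference was -0.11 (95% interval -0.40 to 0.17, limma adjusted p = 0.501). A dimmer Gdf3 probe set differed by -0.46 on replicate 2 and -0.14 on replicate 3, so its lower array was the other one.

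The convertases that cut pro-Nodal read above WT on replicates 2 and 3, and neither passed. Furin, a ubiquitous convertase of the secretory pathway, read 8.33 and 8.32 in WT and 8.38 on the array labelled replicate 1, whereas replicates 2 and 3 read 9.17 and 8.63. All 3 arrays labelled mutant lay above WT, but they differed widely, with 1.8-fold on replicate 2 and 1.23-fold on replicate 3. The difference was 0.57 (SE 0.20, limma adjusted p = 0.172). It was 0.85 without replicate 3 and 0.30 without replicate 2, and passed in both cases (limma adjusted p = 0.0165 and 0.0329), where a single mutant array is assumed to vary as the WT arrays do. Pcsk6 read 7.58 and 7.55 in WT and 7.49 on the array labelled replicate 1, whereas replicates 2 and 3 read 7.67 and 7.86, a difference of 0.20 (95% interval -0.06 to 0.46, limma adjusted p = 0.252).

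Of the receptor genes, Tdgf1 was the brightest of the 10 probe sets and stayed near its WT value. It read 12.76 and 12.73 in WT and 12.73 on the array labelled replicate 1, whereas replicates 2 and 3 read 12.67 and 12.62. Both of these arrays lay below WT, by 0.08 and 0.13. The difference was -0.10 (95% interval -0.29 to 0.09, limma adjusted p = 0.396). Acvr2b, a type II receptor, read 8.42 and 8.66 in WT and 8.52 on the array labelled replicate 1, whereas replicates 2 and 3 read 7.94 and 7.97. The gap between the WT arrays, 0.24, was the widest of the 10 genes, and replicates 2 and 3 still lay below both. The difference was -0.58 (SE 0.11, 95% interval -0.88 to -0.28, limma adjusted p = 0.0634), and it passed in 3 of 12 alternatives.

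Foxh1, the forkhead factor that brings Smad complexes to Nodal and Lefty enhancers, read 8.61 and 8.73 in WT and 8.66 on the array labelled replicate 1, whereas replicates 2 and 3 read 8.20 and 8.19. The difference was -0.47 (SE 0.08, limma adjusted p = 0.0553), and it passed in 4 of 12 alternatives, with values between -1.03 and -0.42. Its 3 probe sets all lay below WT on both arrays, but by unequal amounts. The one with a WT mean of 8.09 differed by -0.96 and -1.09 on replicates 2 and 3, or 2.04-fold lower on average, and the dimmest, at 7.38 in WT, by -0.34 and -0.36. Read from the first of these, the probe set with the largest SD, Foxh1 passed with a difference of -1.03 (limma adjusted p = 0.038). The probe set with the highest mean is one of those that can be shared between transcripts, as its name marks.

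Smad7, which blocks the type I receptor from inside the cell, read 9.51 in both WT samples, 9.51 on the array labelled replicate 1, 9.37 on replicate 2 and 9.52 on replicate 3. Only replicate 2 stood apart. The difference was -0.07 (95% interval -0.31 to 0.17, limma adjusted p = 0.615). It was 0.01 without replicate 2, and without replicate 3 it was -0.15 and passed (limma adjusted p = 0.0196), in 1 of 12 alternatives. A second Smad7 probe set read 8.02 on 4 arrays and 8.12 on replicate 2, so the array that stood apart was the same and its direction the opposite. The name of this second probe set marks it as one whose probes may also bind other transcripts.

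**Figure D2:**
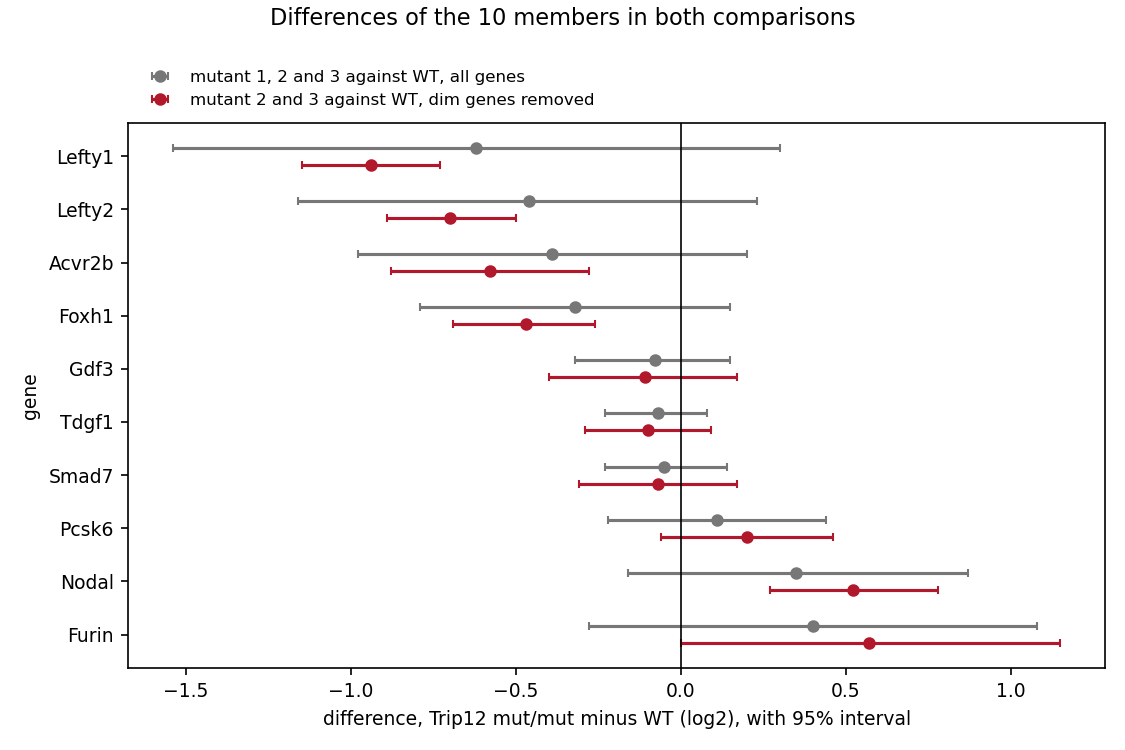
Difference from WT on the log2 scale (horizontal axis) of each of the 10 genes (vertical axis), with limma's 95% interval, grey over all 5 arrays and red for replicates 2 and 3 against WT with dim genes removed. Every grey interval spans 0, while the red intervals of Lefty1 (-1.15 to -0.73) and Lefty2 (-0.89 to -0.50) lie below it, as do those of Acvr2b (-0.88 to -0.28) and Foxh1 (-0.69 to -0.26), and that of Nodal (0.27 to 0.78) lies above it; intervals are not adjusted for the number of genes.

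Of the 10 genes 5 had more than 1 probe set. For 4 of these, Nodal, Gdf3, Acvr2b and Foxh1, every probe set differed in the same direction on the mean of replicates 2 and 3. Smad7 was the exception, with 0.05 at its second probe set. The third Acvr2b probe set was dim, with a WT mean of 3.45, and was not tested. Tested as single probe sets over replicates 2 and 3, 0.066% of 22734 passed in limma, and none of the members' probe sets did. The smallest adjusted p there was 0.0596, for Lefty1, Lefty2 and the Foxh1 probe set that differed by -1.03.

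**Figure D3:**
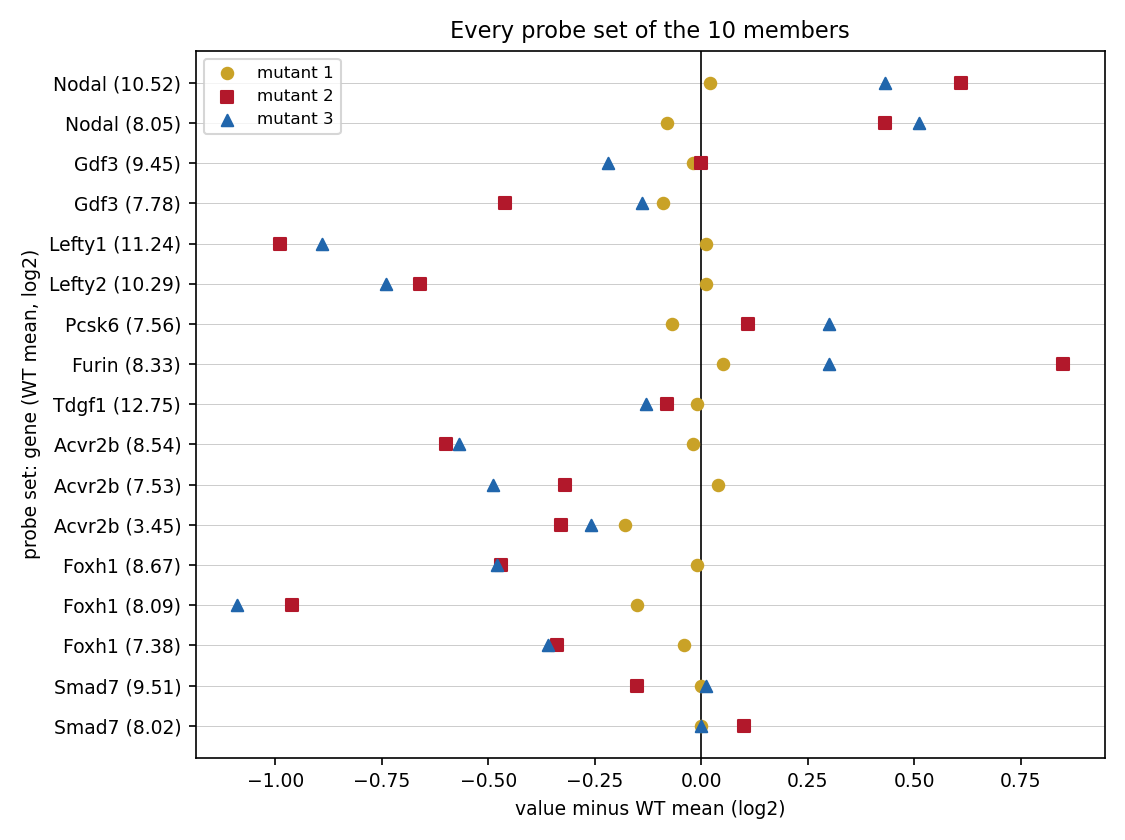
Value minus the WT mean on the log2 scale (horizontal axis) for all 17 probe sets of the 10 genes (vertical axis, with the WT mean in brackets), with circles for the array labelled Trip12 mut/mut replicate 1, squares for replicate 2 and triangles for replicate 3. Squares and triangles of both Nodal probe sets lie right of 0 (0.43 to 0.61) and those of the 3 Foxh1 and 3 Acvr2b probe sets left of it, at -0.96 and -1.09 for the Foxh1 probe set of WT mean 8.09; the Lefty1 points lie at -0.99 and -0.89.

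The other genes of the pathway were read from a list of 50, of which 46 were measured. Over all 5 arrays 0 of 46 passed in limma and the median difference was 0.04. At an unadjusted p of 0.05 the count was 1 of 46, Cfc1, against 1.18% of all genes. In the second comparison 3 of 41 tested rose, 1 fell and 37 did not pass, with a median of 0.07, against 4.64% of all genes called. On the array labelled replicate 1, 31 of the 41 lay within 0.1 of the WT mean, and none was farther from it than 0.26. The 4 calls have the limit of the Lefty calls: 0 genes of the list passed with dim genes kept, with array weights, with 1 test per probe set, or without either WT array.

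Both activin beta subunit genes on the list rose. Inhbb, which encodes the beta B subunit of activins and inhibins, read 9.49 and 9.51 in WT and 9.37 on the array labelled replicate 1, whereas replicates 2 and 3 read 10.27 and 10.15. It rose by 0.71 (SE 0.08, limma adjusted p = 0.0422). Inhba, the beta A subunit, rose from 12.51 in WT to 13.02 (0.52, SE 0.07, limma adjusted p = 0.0493), with 12.98 and 13.07 on the single arrays. Tgfb1 differed by 0.43 and did not pass (limma adjusted p = 0.0604), so 2 of 4 ligands tested rose and 0 fell, where 3.29% of all genes rose and 1.34% fell. Most fibroblast markers were higher on the same arrays, and their part was not tested.

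Among extracellular inhibitors and co-receptors 1 of 8 fell and 0 rose, against 1.34% and 3.29% of all genes. Fst encodes follistatin, which traps activins. It read 8.26 and 8.09 in WT and 8.03 on the array labelled replicate 1, whereas replicates 2 and 3 read 7.16 and 7.32. It lay below WT on all 3 arrays labelled mutant, and the last 2 arrays were the lowest by far. Fst fell by 0.94 (SE 0.11, 95% interval -1.23 to -0.64, limma adjusted p = 0.0424), or 1.91-fold. Tgfbr3, the co-receptor betaglycan, differed by 0.69 (limma adjusted p = 0.0535), and Cer1, a secreted Nodal and BMP antagonist, by -0.45 (0.142). Cfc1 differed by -0.22, -0.38 and -0.46 on the 3 arrays labelled mutant. Over all 5 arrays its difference was -0.35 (limma unadjusted p = 0.0183, adjusted p = 0.748).

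Of 4 receptors tested 0 passed in limma (1 at an unadjusted p of 0.05, as did 28.8% of all genes). The TGF-beta type II receptor Tgfbr2 differed by 0.73 (limma adjusted p = 0.0737). Acvr2a, the other activin type II receptor, differed by 0.52 on replicate 2 and 0.07 on replicate 3, and Tgfbr1 by -0.52 and -0.03, so both differed mainly on replicate 2. Of 11 Smads and nuclear partners 0 passed in limma, again with 1 at an unadjusted p of 0.05, and the signal transducers Smad2, Smad3 and Smad4 differed by 0.03, 0.18 and -0.12. The corepressor gene Tgif2 differed by -0.61 (limma adjusted p = 0.057). Trim33, a ubiquitin ligase that binds Smads, differed by -0.98 on replicate 2 and -0.29 on replicate 3. Skil, the corepressor SnoN and a known pathway target, differed by -0.85 and -0.20.

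Among brakes and ubiquitin ligases 0 of 8 passed in limma (3 at an unadjusted p of 0.05, near the 28.8% of all genes). Those 3 were Smad6, an inhibitory Smad (0.56), Smurf1, a ligase that targets receptors and Smads (0.52), and Pmepa1, a membrane-bound inhibitor (0.40), with adjusted p of 0.0802, 0.0876 and 0.0878. Of the other convertases Pcsk5 rose by 0.89 (SE 0.11, limma adjusted p = 0.0454), from 8.24 and 8.12 in WT and 8.19 on the array labelled replicate 1 to 9.17 and 8.97 on replicates 2 and 3. Pcsk7 differed by 0.41 (limma adjusted p = 0.124). With Furin and Pcsk6, 4 convertase genes were read, and all 4 lay above both WT arrays on replicates 2 and 3, as did 35.2% of all genes tested; of the 4 only Pcsk5 passed.

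Of 7 target genes measured 4 passed the filter on dim genes and 0 of these passed in limma. At an unadjusted p of 0.05 the count was 2 of 4, Lhx1 and Ccn2, against 28.8% of all genes. Mixl1, Foxa2 and Gsc were too dim to be tested, with WT means of 5.55, 5.46 and 3.72. On replicates 2 and 3 Mixl1 differed by -0.74 and -0.76, Foxa2 by -0.93 and -0.75, and Gsc by -1.04 and -0.42. The WT arrays themselves differed by 0.13 for Mixl1, 0.48 for Foxa2 and 0.37 for Gsc. Gsc also differed by -0.42 on the array labelled replicate 1, as much as on replicate 3. Among the targets tested, Hhex differed by 0.07 (limma adjusted p = 0.546). Lhx1, a LIM homeobox gene, read 5.75 and 5.83 in WT and 5.91 on the array labelled replicate 1. Replicates 2 and 3 read 5.02 and 4.57 (-0.99, limma adjusted p = 0.0594). Lhx1 passed the filter through the WT arrays alone, as replicates 2 and 3 lay below the median of all values, 5.52. Eomes, a T-box factor of the primitive streak, differed by -0.12 on replicate 2 and -0.55 on replicate 3. On the array labelled replicate 1 it also differed by -0.12. Ccn2, a matrix protein gene induced by TGF-beta in fibroblasts, differed by 0.41 and 0.85.

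**Figure D4:**
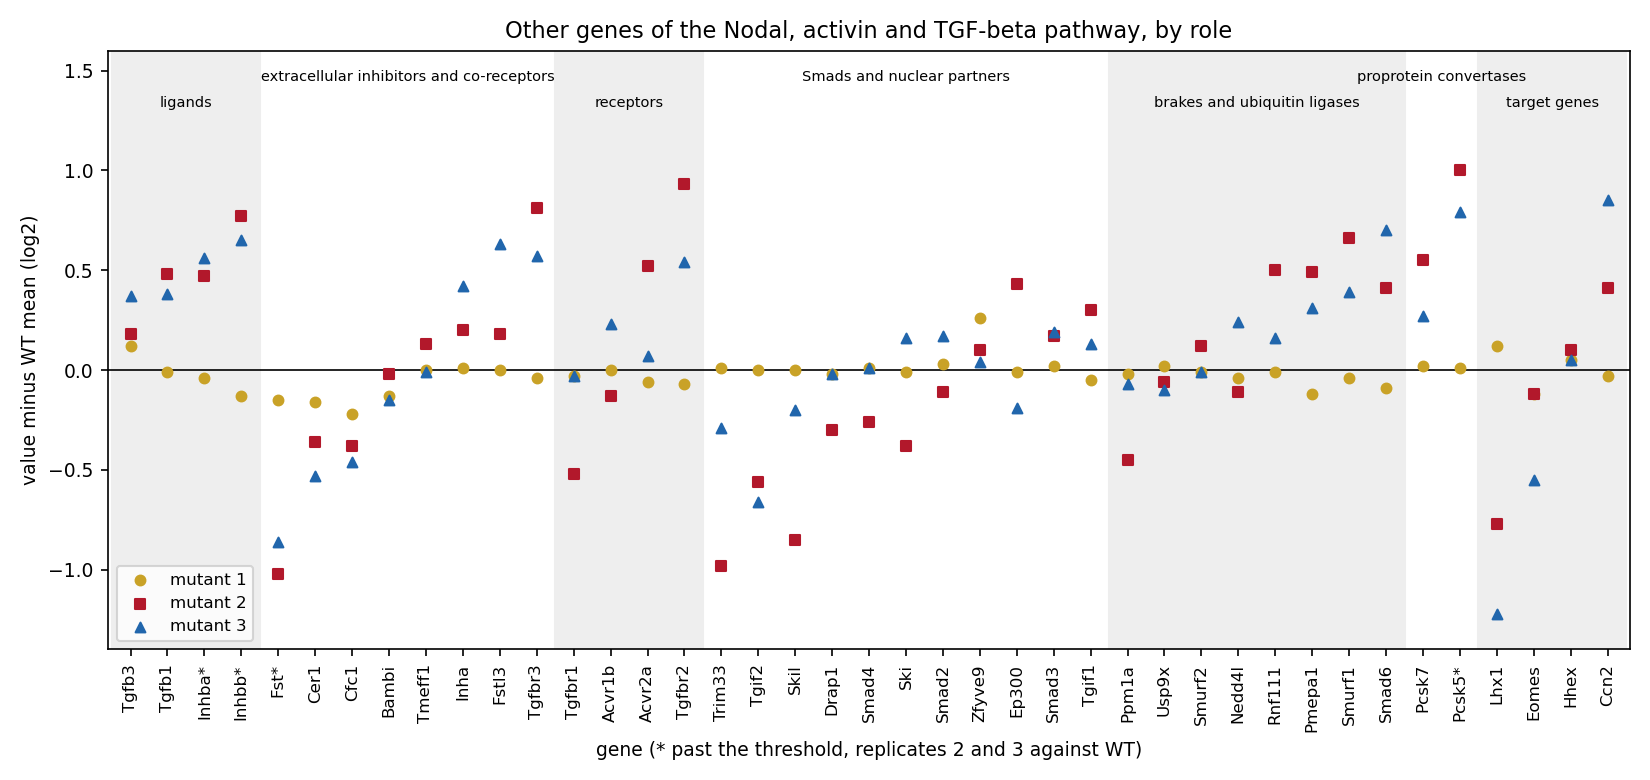
Value minus the WT mean on the log2 scale (vertical axis) for the 41 tested genes of the pathway list (horizontal axis, grouped by role), with circles for the array labelled Trip12 mut/mut replicate 1, squares for replicate 2 and triangles for replicate 3, and a star for a gene past the threshold on replicates 2 and 3. The stars are at Inhba (0.52), Inhbb (0.71) and Pcsk5 (0.89), above 0, and at Fst (-0.94), below it, while no circle is farther than 0.26 from 0.

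Other genes followed nearly the same course as the Lefty pair over the 5 arrays. Likeness was the root mean square distance between profiles, each taken relative to its own WT mean, among 11625 other genes. The closest to Lefty1 were Ldoc1 (0.0366), Mcrip2 (0.0398), Grb7 (0.0423), Pnma2 (0.051) and Gpat2 (0.0543). The closest to Lefty2 were Lama3 (0.0147), Med14 (0.0197), Cdcp1 (0.0202), Mest (0.0307) and Braf (0.0319). The Lefty genes lay 0.163 from each other, which put Lefty2 at rank 101 for Lefty1 and Lefty1 at rank 235 for Lefty2. With 5 arrays, of which 3 are alike, such a distance mostly reflects the size of the difference on replicates 2 and 3.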

How the data were processed

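The authors deposited 1 log2 value per probe set and array, made with RMA, per the submitters' processing notes. No version of it is stated. Of 45101 probe sets 64 controls were left out. Platform annotation gave 34945 probe sets 1 symbol, 932 several and 9160 none, and 34741 symbols were updated by gene number (assembly GRCm38.p6). Array medians lay between 5.51 and 5.55, and a global change in RNA amount is lost in such values. RMA makes no present or absent calls. Any 2 arrays held equal values at 10.3% to 21.1% of probe sets, which makes some spreads within a group 0. The number of arrays limits the precision.

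Genes were tested with limma 3.58.1 in R 4.3.3 (a two-sided moderated test with lmFit and eBayes, modelling genotype alone), with Benjamini-Hochberg adjustment over all genes tested and a threshold of 0.05. The test was tried on simulated data, in which each change was added alike to every mutant array, with independent normal noise. Over all 5 arrays and 18193 genes 56 of 100 simulated log2 changes of 1 and 83 of 100 of 2 were found, along with 9 false ones. Over 4 arrays and 11626 genes these were 55, 86 and 4. A change on replicates 2 and 3 alone was not simulated over all 5 arrays, so the first counts do not apply to such a change. The members, gene lists, comparisons and alternatives were chosen with earlier results of these data known. The genes named were all members, Trip12 as the targeted gene, and up to 3 tested genes per role of the pathway list with the largest difference. Also named were Smad2, Smad3 and Smad4, the nearest protein-coding neighbours of the Lefty pair, and the 5 profiles closest to each Lefty gene. Some cell type markers, the target genes too dim to be tested, Hhex and Cfc1 were named too. The Smads, the neighbours, these markers, these target genes, Hhex and Cfc1 were added after values were seen. Alternatives were quantile normalisation, median centring, the filter on dim genes, a variance trend, array weights, the mean of probe sets or the one with the largest SD, each array left out, a replicate block and, added after seeing the data, 1 test per probe set. Figures were drawn with matplotlib 3.10.9.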

Additional observations from a re-analysis of the deposited data

How the results depend on the processing

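Over all 5 arrays, 0 genes, 0 members and 0 pathway list genes passed in limma under every alternative run, the replicate block among them (0 genes, with 133 at an unadjusted p of 0.05, and 0 members). Replicate numbers were not taken to pair samples: same-numbered WT and mutant arrays had deviations correlated at -0.05 and -0.13. No paired analysis was possible for replicates 2 and 3 against WT, because these groups share 1 number. There, 539 genes, 2 members and 4 pathway list genes passed. The counts were 998, 5 and 7 with quantile normalisation and 1190, 5 and 9 with median centring. They were 0, 0 and 0 with dim genes kept, and the same with array weights. When all probe sets of a gene were averaged, 1461 genes and 5 members passed, and with 1 test per probe set 15 probe sets, 0 members and 0 list genes. Leaving out each array in turn gave 0 to 4912 genes, 0 to 5 members and 0 to 20 list genes, the lowest without either WT array. A lone array is then assumed to vary like the others. Of the members' differences only that of Smad7 changed sign, to 0.01 without replicate 2 in both comparisons (range -0.07 to 0.01 and -0.15 to 0.01 over arrays left out). The causes were not tested.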
